A study of Mus musculus with 16 samples.

Results

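The genes described here are 10 that encode a growth factor receptor, a ligand, or a protein that switches a ligand on or off: Kit and its ligand gene Kitl, the hepatocyte growth factor (HGF) pathway genes Hgfac, St14, Spint1, Spint2 and Met, and the receptor genes Fgfr3, Igf1r and Insr. They were chosen by name from the 45513 genes of the count files, without a threshold on any value. Earlier results of these data were known when the 10 were chosen. All 10 were present and passed the filter on low counts. The series compared colon epithelial cells that had expressed Atoh1, the transcription factor that commits intestinal cells to the secretory lineage, with the other epithelial cells of the same animals. Live cells positive for the epithelial surface protein EpCAM were sorted from 8 mice into a fraction with the red reporter tdTomato (tdTom+) and a fraction without it (tdTom-), which gave 8 RNA-seq libraries per fraction. Both fractions of each mouse shared 1 genotype and treatment: homozygous Atoh1(WT)CreERT2, a knock-in that makes tamoxifen-dependent Cre from the Atoh1 locus and keeps the wild-type ATOH1 protein, and 1 copy of the Rosa26 tdTom reporter. The mice were adult C57BL/6 of both sexes, and the labels give 1 mg tamoxifen a day on 3 days, while the general sequencing methods give a single larger injection, so the time from the last dose to collection is not certain. Each library is 1 animal's fraction. The tdTom- fraction is a mixture of everything else in the EpCAM gate, chiefly absorptive cells with stem, enteroendocrine and tuft cells.

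The proteins fall into 3 systems. KIT is a receptor tyrosine kinase bound by the KIT ligand (stem cell factor, the product of Kitl), known from mast cells, melanocytes and the pacemaker cells of gut muscle, and in the colon also from the deep crypt secretory cells that lie beside stem cells. HGF is secreted as an inactive chain by cells of the mesenchyme and binds MET only after a serine protease has cut it. HGF activator (Hgfac) and matriptase (St14) are such proteases, and the Kunitz-type inhibitors HAI-1 (Spint1) and HAI-2 (Spint2) hold them in check on the epithelial surface. FGFR3, IGF1R and INSR are the receptors for fibroblast growth factors, insulin-like growth factors and insulin.

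The 3 genes of the set that were higher in tdTom+ cells all lie on the plus strand of chromosome 5 in mouse build GRCm38, with Fgfr3 at chr5:33721724-33737068, Hgfac at chr5:35041553-35048436 and Kit at chr5:75574916-75656722. Because ATOH1 binds E-box sequences, the bases just upstream of these genes are shown, taken from RefSeq (build GRCm38.p6, plus strand), with any CAGCTG E-box in capitals. The Kit sequence covers chr5:75574737-75574915 and ends where the gene begins in the count files, 71 bases before the RefSeq start. The sequences of Hgfac (chr5:35041259-35041508) and Fgfr3 (chr5:33721474-33721723) hold the 250 bases before a RefSeq start.
Kit: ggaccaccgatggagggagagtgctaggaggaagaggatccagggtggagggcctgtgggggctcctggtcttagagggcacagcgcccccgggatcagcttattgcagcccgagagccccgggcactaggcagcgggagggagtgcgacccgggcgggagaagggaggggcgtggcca
Hgfac: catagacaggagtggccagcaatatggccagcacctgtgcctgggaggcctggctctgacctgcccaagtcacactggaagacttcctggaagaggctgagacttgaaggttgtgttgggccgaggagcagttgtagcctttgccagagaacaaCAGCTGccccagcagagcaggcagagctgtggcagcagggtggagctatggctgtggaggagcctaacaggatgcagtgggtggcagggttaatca
Fgfr3: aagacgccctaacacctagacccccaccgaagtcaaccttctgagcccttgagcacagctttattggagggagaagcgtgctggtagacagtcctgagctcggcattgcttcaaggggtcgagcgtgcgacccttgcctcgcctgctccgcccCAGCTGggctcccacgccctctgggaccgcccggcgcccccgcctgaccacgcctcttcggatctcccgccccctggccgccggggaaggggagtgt
The Hgfac sequence held CAGCTG starting 96 bases before the RefSeq start, and the printed Fgfr3 sequence held it 97 bases before. Fgfr3 had another RefSeq window, at chr5:33722056-33722305, which is not printed and held no CAGCTG or CAGATG. Neither CAGCTG nor CAGATG, searched on both strands, was found in the whole 250 bases upstream of Kit. RefSeq windows were matched for 8 of the 10 genes, 10 windows in all, and not for St14 and Insr. Among the other members, Spint2 alone had a match, CAGATG read on the opposite strand 26 bases before its start. Over 32851 such windows of 27025 genes, 13.0% held CAGCTG, 14.4% held CAGATG and 25.5% held either, so the letters are common and a match is a description of the sequence only. The windows of the members held 58.4% to 77.6% G and C, against a median of 52.4% over all windows.

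The libraries held 16482530 to 24218367 counts in the tdTom+ fraction and 18318172 to 20668605 in the tdTom- fraction, other than the tdTom- library of mouse 4, which held 45791503. The Cre that switches on the reporter is made from the Atoh1 locus. Atoh1 itself had a level of 132 ± 19.3 normalised counts in every 1000000 (CPM) in tdTom+ libraries (SD, n = 8). In tdTom- libraries it had 5.70 ± 1.67 CPM (SD, n = 8). All 8 goblet cell markers and all 6 deep crypt secretory markers were higher in tdTom+ cells, and 7 of 8 absorptive markers and 9 of 10 enteroendocrine markers were lower. The other absorptive marker, Guca2a, did not pass. The other enteroendocrine marker, Neurog3, was higher in tdTom+ cells, at mean levels of 4.92 CPM (tdTom+) and 1.62 CPM (tdTom-). Of 7 tested stem markers 3 were higher and 4 lower, and of 7 tested tuft markers 5 were lower and 2 did not pass. The tuft list had a median sum of 85.2 CPM in tdTom+ and 141 CPM in tdTom- libraries. The epithelial markers were abundant in both fractions, but 6 of 8 were lower and 1 was higher in tdTom+ cells. Their median log2 difference (tdTom+ minus tdTom-) was -0.49, and Epcam had mean levels of 1218 CPM (tdTom+) and 1402 CPM (tdTom-). Since each library is a bulk sample, a gene's lower level in a fraction may come from fewer cells that express it or from less RNA per cell, which cannot be told apart.

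Kit, Hgfac and Fgfr3 were higher in tdTom+ cells, Kitl, St14, Spint1, Met and Insr were lower, and Spint2 and Igf1r did not pass the test. A gene was called where its p from the quasi-likelihood test of edgeR, adjusted by the Benjamini-Hochberg method over the 15841 genes that passed the filter, was under 0.01. By that rule 3 of the 10 genes were higher, against 25.5% of all genes tested, and 5 were lower, against 25.5% of all genes tested. In either direction 8 of 10 passed, where 51.0% of all genes did, and 9, with Spint2 added, passed at an adjusted p under 0.05, where 61.6% of all genes did. The tdTom+ and tdTom- libraries did not overlap in CPM for 7 of the 10, where this was so for 30.5% of all genes tested. The 10 were chosen with earlier results of these data known, so these shares are a description only. The median log2 difference (tdTom+ minus tdTom-) of the 10 was -0.23, beside 0.004 over all genes tested. Within a fraction the 8 mice were close, with coefficients of variation from 6.36% to 18.3% over the 10 genes, and no count of a member in a library fell under 121.

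**Figure D1:**
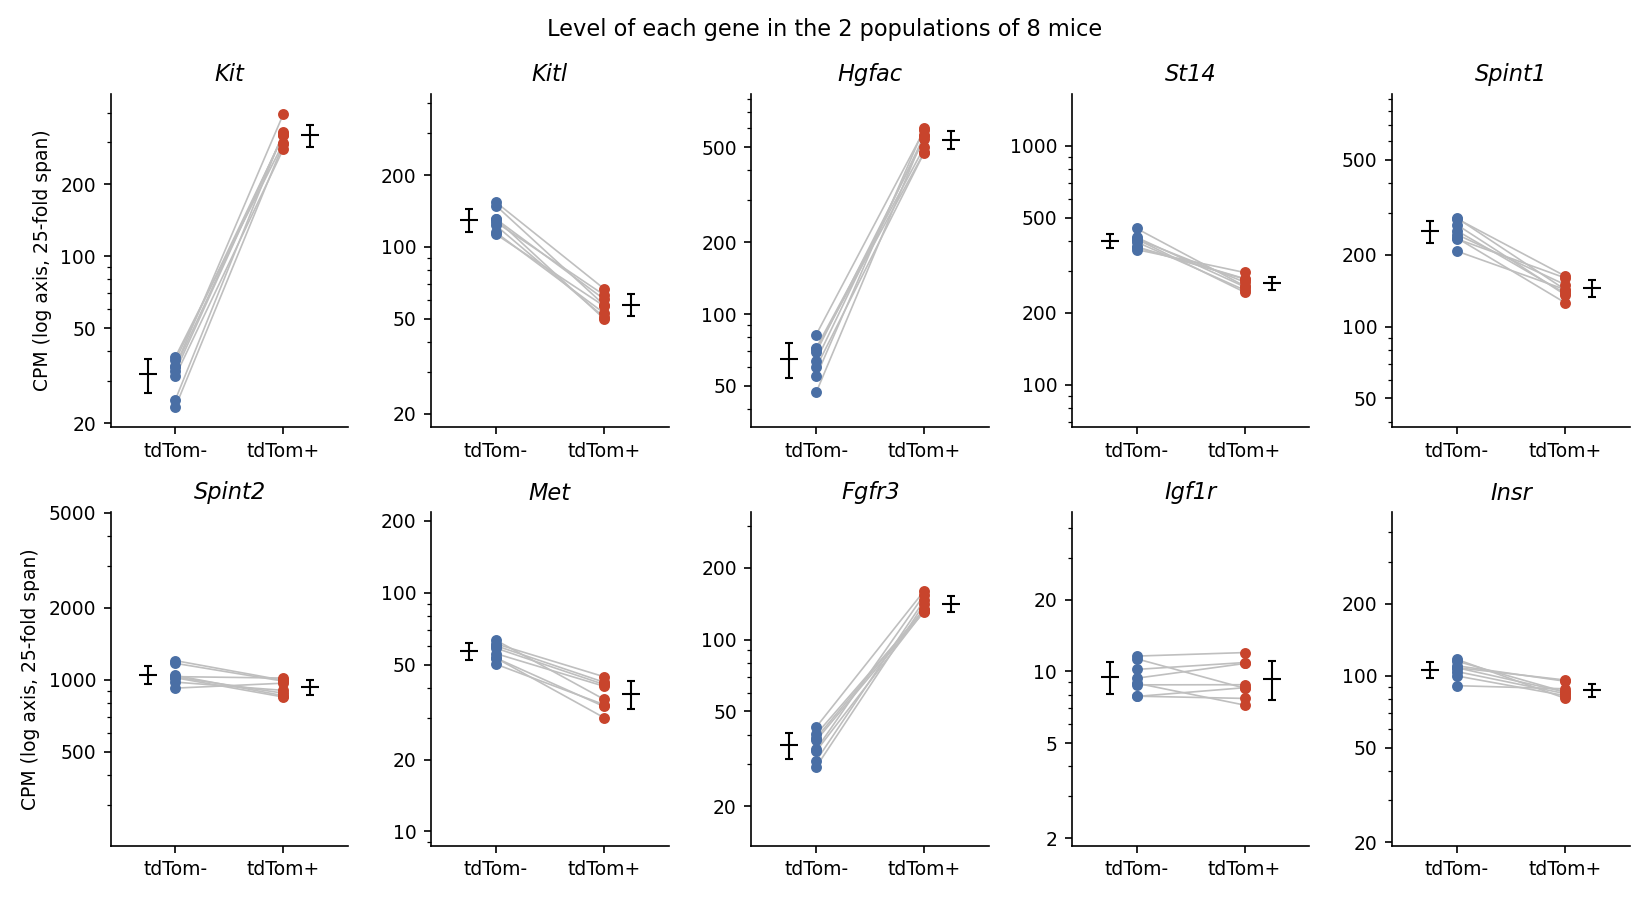
Level of each of the 10 genes in CPM (log axis, 25-fold span in every panel), with a point for each library, a grey line joining the fractions of a mouse, and the mean ± SD of 8 mice beside the points. Kit, Hgfac and Fgfr3 climb from tdTom- to tdTom+ in every mouse, Kitl, St14, Spint1, Met and Insr descend in every mouse, and the points of Spint2, Igf1r and Insr overlap between the fractions.

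Kit and the gene of its ligand moved in opposite directions. Kitl (ENSMUSG00000019966, chr10:100015630-100100413, plus strand), whose product is made as a membrane protein and can be shed, ranged in level from 50.1 to 66.9 CPM over the tdTom+ libraries, with a median of 57.0. Over the tdTom- libraries it ranged from 113 to 154 CPM, with a median of 129. Every tdTom+ library thus lay below every tdTom- library. The means were 57.3 ± 5.95 CPM in tdTom+ and 130 ± 14.5 CPM in tdTom- (SD, n = 8), a level 2.28 times lower in tdTom+ cells. The log2 difference was -1.19 (SE 0.074, edgeR adjusted p = 1.67e-11), and the 8 mice gave differences from -1.38 to -1.0.

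Kit (ENSMUSG00000005672) had levels from 282 to 395 CPM in the tdTom+ libraries, with a median of 323, and from 23.4 to 37.9 CPM in the tdTom- libraries, with a median of 33.6. The lowest tdTom+ library stood well above the highest tdTom- library. The mean level was 322 ± 34.2 CPM in tdTom+ and 32.0 ± 5.23 CPM in tdTom- (SD, n = 8), which is 10.1-fold higher by the fit. On the log2 scale the difference was 3.33 (SE 0.102, edgeR adjusted p = 5.34e-16), and it ranked 162 of 15841 from the highest. Mouse 6 had the smallest difference, 2.98, and mouse 4 the largest, 3.71. The raw counts behind these levels were 4365 to 7484 per tdTom+ library and 493 to 1292 per tdTom- library, so counting error was small beside the spread between mice. The ratio of the Kit level to the Kitl level, each divided by its exon length, was 5.59 ± 0.672 (range 4.65 to 6.46) in tdTom+ and 0.247 ± 0.0536 (range 0.162 to 0.330) in tdTom- libraries.

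Kit is also a marker of other cells that can be carried along in a gut preparation, and the genes of those cells were read beside it. Of 11 mast cell genes, 1 passed the filter, and the sum of the list was 6.82 to 16.5 CPM in tdTom+ and 0.894 to 3.40 CPM in tdTom- libraries. Cma1, a chymase gene, made up most of the sum in tdTom+ libraries, at a mean of 11.4 CPM, and was at 0.401 CPM in tdTom- libraries. Tpsb2 had 119 counts over the tdTom+ and 19 over the tdTom- libraries, and was higher in tdTom+ cells in all 8 mice. Gata2 had 62 and 125 counts, Mcpt1 6 and 37, and Hdc 5 and 43. The mast cell genes Tpsab1 (a tryptase) and Ms4a2 (the beta chain of the IgE receptor) had no count in any of the 16 libraries. Cpa3, Mcpt2, Mcpt4 and Fcer1a had none in the tdTom+ libraries. The 5 genes listed for interstitial cells of Cajal, the KIT-positive pacemaker cells, summed to 273 to 360 CPM in tdTom+ and 238 to 496 CPM in tdTom- libraries, with 0 higher and 3 lower in tdTom+ cells. Ano1 and Thbs4, which made up most of that sum, were present in both fractions. Of the innate lymphoid and T cell genes, Il22 had no count in any library and Il7r had none in the tdTom+ libraries. The lists for other leukocytes, for stroma and muscle, and for endothelium and glia had median sums of 8.98, 11.9 and 1.80 CPM in tdTom+ and of 16.3, 15.2 and 3.52 CPM in tdTom- libraries. The part of these cells in the Kit difference was not tested beyond these values.

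In the HGF system, 1 activating protease was much higher in tdTom+ cells while the other protease, the HAI-1 inhibitor and the receptor were lower. Hgfac (ENSMUSG00000029102), known best as a plasma protease made by the liver, ranged in level from 475 to 600 CPM over the tdTom+ libraries, with a median of 550. Over the tdTom- libraries it ranged from 47.0 to 82.0 CPM, with a median of 66.5. There was a wide gap between the fractions. The means of 538 ± 48.7 and 65.0 ± 11 CPM (SD, n = 8) gave a log2 difference of 3.05 (SE 0.101, edgeR adjusted p = 1.46e-15), or 8.28-fold, which ranked 194 from the highest. The differences of the mice ran from 2.74 in mouse 6 to 3.57 in mouse 4, the same mice that were lowest and highest for Kit. For Atoh1, mouse 6 again had the smallest difference, 3.77, and mouse 1 the largest, 4.98. Mouse 6 also had the highest Atoh1 level of the tdTom- libraries, 8.89 CPM. Mouse 4 also had the deepest tdTom- library, and without it the fitted differences were 3.30 for Kit and 3.00 for Hgfac.

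St14 (ENSMUSG00000031995, chr9:31089402-31131853, minus strand), the gene of the membrane protease matriptase, had a level of 244 to 295 CPM in tdTom+ libraries (median 264) and 368 to 451 CPM in tdTom- libraries (median 402). The fractions did not overlap, and St14 was lower in tdTom+ cells in all 8 mice. The means were 266 ± 16.9 and 400 ± 26.8 CPM (SD, n = 8), and the fitted difference was -0.59 on the log2 scale (SE 0.058, edgeR adjusted p = 1.87e-08), with mice from -0.80 to -0.32. Per exon length, the Hgfac level was 4.41 ± 0.359 times the St14 level in tdTom+ libraries (range 3.73 to 4.76) and 0.354 ± 0.0545 times in tdTom- libraries (range 0.278 to 0.437).

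Spint1 (ENSMUSG00000027315, chr2:119237362-119249527, plus strand), which encodes the inhibitor HAI-1, had a level of 126 to 163 CPM in tdTom+ libraries (median 143) and 207 to 285 CPM in tdTom- libraries (median 247). Here too every tdTom+ library was below every tdTom- library. The means were 145 ± 12.4 and 251 ± 26.7 CPM (SD, n = 8). The log2 difference was -0.79 (SE 0.071, edgeR adjusted p = 4.78e-09), a level 1.73 times lower, and mice ranged from -1.0 to -0.54. Spint2 (ENSMUSG00000074227, chr7:29256331-29281977, minus strand), the gene of HAI-2, had the highest level of the 10 per exon length as well as in counts, with 846 to 1016 CPM in tdTom+ (median 934) and 922 to 1202 CPM in tdTom- libraries (median 1028). Its ranges overlapped, and it was lower in tdTom+ cells in 7 mice and higher in mouse 4. Its log2 difference was -0.17 (SE 0.070) with an edgeR adjusted p of 0.0382, past 0.05 but not 0.01. Without mouse 2, 3, 5, 6, 7 or 8 it was 0.0702 to 0.1038, and the looser call was lost.

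Both inhibitor genes belong to 1 protein family, yet they stood in unequal proportion in the fractions. Per exon length, the Spint2 level was 12.2 ± 0.780 times that of Spint1 in tdTom+ libraries (range 11.4 to 13.6) and 7.97 ± 0.681 times in tdTom- libraries (range 6.82 to 8.80). The ratio of St14 to the sum of Spint1 and Spint2 was 0.0845 ± 0.00687 in tdTom+ and 0.108 ± 0.00484 in tdTom- libraries, with ranges of 0.0734 to 0.0902 and 0.0996 to 0.114 that did not overlap. St14 over Spint1 alone was 1.12 ± 0.0895 and 0.969 ± 0.0604, and these ranges did overlap. These ratios are of mRNA levels per exon length and are given as a description, without a test.

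Met (ENSMUSG00000009376, chr6:17463800-17573980, plus strand), the HGF receptor gene, had a level of 30.0 to 44.5 CPM in tdTom+ (median 38.2) and 50.2 to 63.3 CPM in tdTom- libraries (median 57.1). The fractions did not overlap, and Met was lower in tdTom+ cells of every mouse. With means of 37.7 ± 5.12 and 56.9 ± 4.51 CPM (SD, n = 8), the log2 difference was -0.59 (SE 0.077, edgeR adjusted p = 1.04e-06), with mice from -0.83 to -0.45. Hgf itself, the ligand gene, had 57 counts over the 8 tdTom+ libraries together and 97 over the 8 tdTom- libraries, at mean levels of 0.369 and 0.555 CPM, and did not pass the filter.

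**Figure D2:**
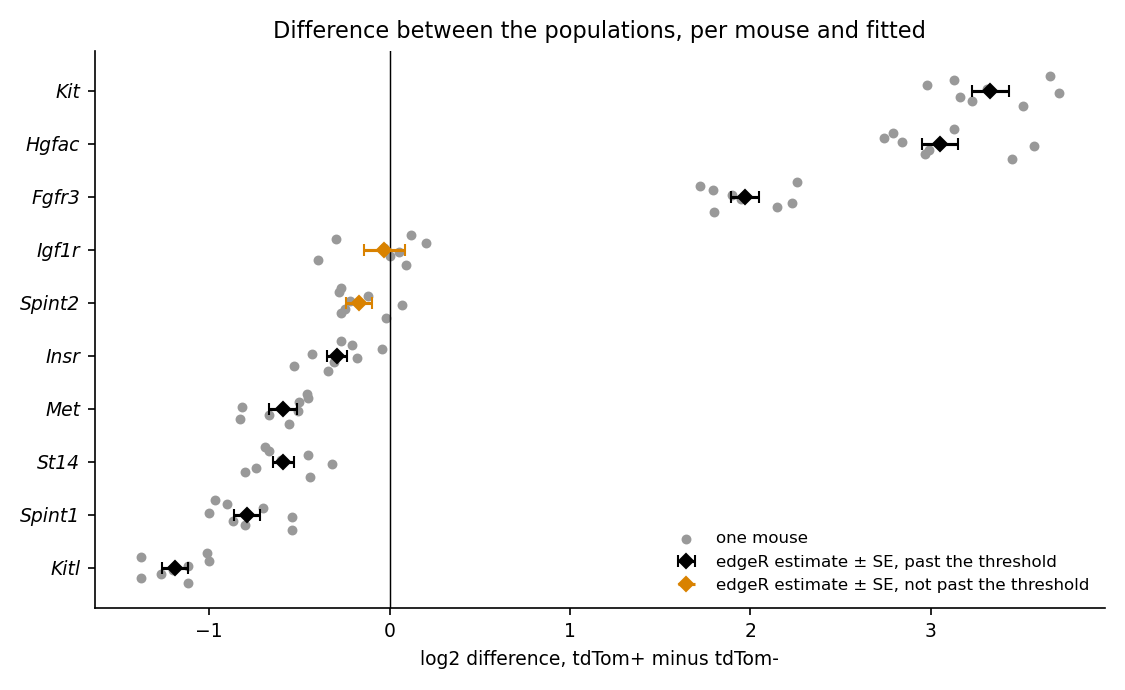
Difference between the fractions for each of the 10 genes on the log2 scale (tdTom+ minus tdTom-), with a grey point for each of 8 mice and a diamond for the edgeR estimate ± SE, black where past the threshold and orange where not. Kit and Hgfac sit near 3, Fgfr3 near 2, Igf1r and Spint2 span 0, and Kitl is farthest to the left at -1.19.

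Among the receptor genes for FGF, IGF and insulin, 1 was higher, 1 did not pass the test and 1 was lower. Fgfr3 (ENSMUSG00000054252) had a level of 131 to 160 CPM in tdTom+ libraries (median 138) and 29.3 to 43.0 CPM in tdTom- libraries (median 36.2). The fractions were clearly apart. The means were 141 ± 11.1 and 36.1 ± 4.63 CPM (SD, n = 8), a 3.92-fold difference by the fit, or 1.97 on the log2 scale (SE 0.075, edgeR adjusted p = 8.61e-15), with mice from 1.72 to 2.26.

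Igf1r (ENSMUSG00000005533, chr7:67952859-68226780, plus strand) had the lowest level of the 10 per exon length, with 7.23 to 12.0 CPM in tdTom+ (median 8.68) and 7.86 to 11.6 CPM in tdTom- libraries (median 9.15). The ranges covered each other almost entirely. The log2 difference was -0.03 (SE 0.115, edgeR adjusted p = 0.825), with 5 mice higher and 3 lower in tdTom+ cells, from -0.40 to 0.20. Insr (ENSMUSG00000005534, chr8:3150922-3279617, minus strand) had a level of 80.4 to 95.9 CPM in tdTom+ (median 85.4) and 90.8 to 117 CPM in tdTom- libraries (median 108). It was lower in the tdTom+ cells of all 8 mice, but the ranges overlapped, since the tdTom- library of mouse 6 lay within the tdTom+ range. With means of 87.1 ± 5.57 and 106 ± 8.31 CPM (SD, n = 8), the log2 difference was -0.29 (SE 0.056, edgeR adjusted p = 1.44e-04), the smallest of the 8 that passed. In mice 5 to 8 alone, a run of animal numbers of their own, it was -0.24 with an edgeR adjusted p of 0.0149, which did not pass. The Insr level was 4.48 ± 0.830 times the Igf1r level in tdTom+ and 5.32 ± 0.821 times in tdTom- libraries, per exon length and with overlapping ranges.

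Levels can be compared between genes once they are divided by the exon length counted in the files, as CPM per kilobase (RPKM). In tdTom+ libraries the mean order was Spint2 at 638 RPKM, Hgfac at 256, St14 at 58.1, Kit at 55.2, Spint1 at 52.3, Fgfr3 at 20.5, Kitl at 9.93, Insr at 9.04, Met at 4.91 and Igf1r at 2.07. Neighbours in that order had overlapping libraries at 3 places, between St14 and Kit, Kit and Spint1, and Kitl and Insr. In tdTom- libraries the mean order was Spint2 at 719 RPKM, Spint1 at 90.6, St14 at 87.3, Hgfac at 30.9, Kitl at 22.6, Insr at 11.1, Met at 7.41, Kit at 5.49, Fgfr3 at 5.23 and Igf1r at 2.12. There the overlapping neighbours were Spint1 and St14, Hgfac and Kitl, and Kit and Fgfr3. Kit thus stood at place 4 from the top in tdTom+ and at place 8 in tdTom- libraries. The lengths are those of the authors' annotation, which for Igf1r held 4489 bases of exon and for Spint2 1459, against 16791 and 4556 in GENCODE M21. It held 59.9% (St14), 61.7% (Hgfac), 65.4% (Kit) and 70.1% (Insr) of the GENCODE M21 exon bases. For Fgfr3, Kitl, Spint1 and Met it held at least 96.5%. The levels per length, and the ratios between genes, thus depend on the gene model. No exon of a member overlapped an exon of another gene on either strand.

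**Figure D3:**
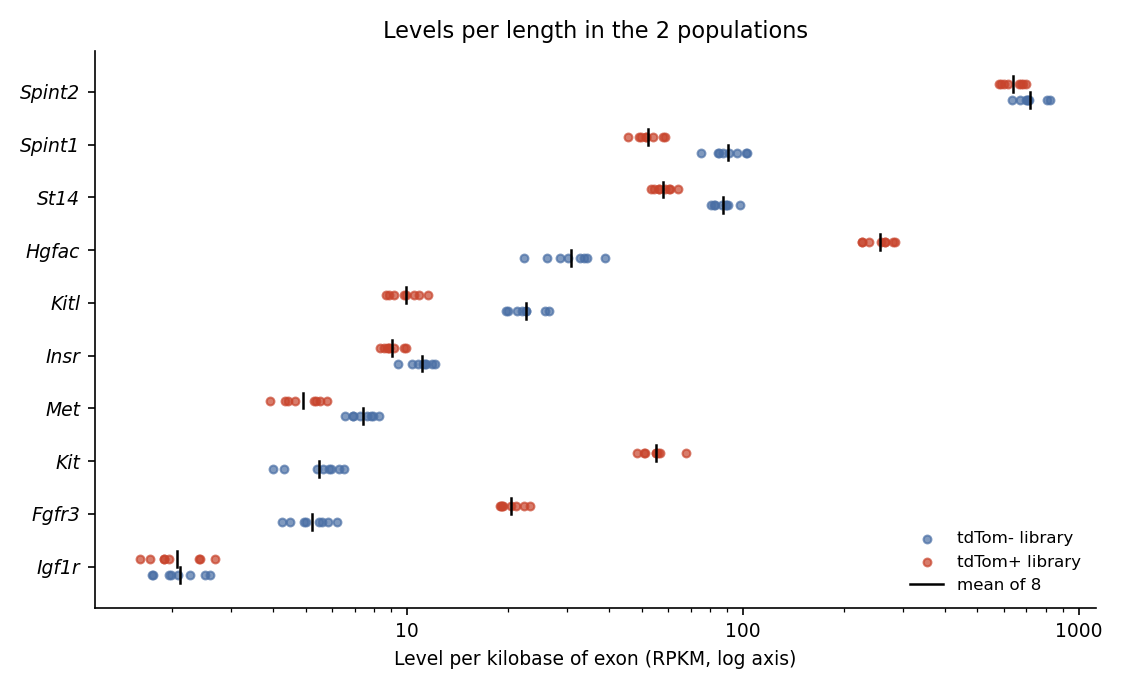
Level per kilobase of exon (RPKM, log axis) of each of the 10 genes, with a point for each of 8 tdTom+ (red) and 8 tdTom- (blue) libraries and a black bar at each mean. Spint2 is highest and Igf1r lowest in both fractions, while the red and blue points of Kit, Hgfac and Fgfr3 lie far apart with red to the right.

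The 3 genes that were higher kept a measurable level in tdTom- cells. The tdTom- mean was 9.95% of the tdTom+ mean for Kit, 12.1% for Hgfac and 25.5% for Fgfr3. The same share was 4.31% for Atoh1, between 4.09% (Muc2) and 8.47% (Zg16) for the 8 goblet markers, and between 5.66% (Reg4) and 17.4% (Dll4) for the 6 deep crypt secretory markers. Kit and Hgfac thus lay above the goblet range, and Fgfr3 lay above both ranges. Among the deep crypt secretory markers, Kit and Hgfac fell in the gap between Lyz1 (8.43%) and Mmp7 (15.1%), where no marker of that list lay. How much of the tdTom- level came from secretory cells without the reporter was not tested. Kit varied less between mice than the deep crypt secretory marker Reg4, whose level ran from 1408 to 4028 CPM over the same tdTom+ libraries.

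The 5 genes whose profile over the 16 libraries was most like that of Kit were Tspan13, Qsox1, Fam189a1, Sync and Gm45837, with mean absolute differences of 0.115, 0.123, 0.149, 0.149 and 0.158 between centred log2 CPM profiles. On the same measure Hgfac differed from Kit by 0.170 and Fgfr3 by 0.681. For Hgfac the nearest genes were Plcb1 at 0.113, Klk1 at 0.125, Klk1b5 at 0.128, and Cgref1 and Lrrc26, both at 0.143. Klk1 and Klk1b5 belong to a cluster of near-identical kallikrein genes, so their counts may hold reads of one another. The profiles are dominated by the difference between the fractions, and all 10 nearest genes had log2 differences between 2.88 and 3.58. On chromosome 5 as a whole, 24.3% of 1068 tested genes were higher and 25.7% lower in tdTom+ cells. Between Fgfr3 and Hgfac, a stretch of 1304484 bases, 4 of 17 tested genes were higher and 6 lower.

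Other genes of each system were read from 5 lists. Of 17 genes for HGF and macrophage-stimulating protein (MSP) ligands, activating proteases and inhibitors, 8 were tested, 4 were higher and 2 lower, with a median log2 difference of 0.39 (0.004 over all genes), where 25.5% of all genes tested were higher and 25.5% lower. The 2 lower became 1 when any mouse other than mouse 3 was left out, and 0 with mice 1 to 3 alone. Hpn, the gene of the membrane protease hepsin, which can also activate HGF, was higher by 2.57 (SE 0.132, edgeR adjusted p = 7.10e-13), with mean levels of 30.4 ± 4.24 CPM (tdTom+) and 5.14 ± 1.28 CPM (tdTom-; SD, n = 8). Tmprss13, another membrane serine protease gene, was higher by 1.30 (SE 0.180, edgeR adjusted p = 2.66e-06). Prss8, the gene of prostasin, a partner of matriptase, was higher by 0.96 and Tmprss2 by 0.46. Mst1r, the gene of the MSP receptor and closest relative of Met, was lower (log2 difference -0.30, edgeR adjusted p = 0.0021), and Tmprss4 had a log2 difference of -0.17 (edgeR adjusted p = 0.0089). Serpina5 had no count, and Klkb1 was not matched to a row.

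The list of adaptors and negative regulators of KIT and MET held 20 genes, of which 19 were tested, 3 were higher and 8 lower, with a median of -0.19. That is 11 of 19 called, beside 51.0% of all genes tested. Mitf, a transcription factor gene known downstream of KIT in melanocytes and mast cells, was higher by 2.27 (SE 0.214, edgeR adjusted p = 1.03e-08) from a low level, 3.51 CPM against 0.752 CPM. Lrig1, a membrane protein gene whose product restrains receptor tyrosine kinases, was higher by 0.43 (SE 0.070). Cbl, a ubiquitin ligase gene that turns over activated receptors, differed by -0.57 (SE 0.111) and the adaptor gene Grb7 by -0.53 (SE 0.063), both past the threshold. The adaptor genes Gab1 and Grb2 were also lower, at -0.30 and -0.36, while Shc1 and Ptpn11 had differences of -0.01 and 0.00 and did not pass.

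For FGF receptors, co-receptors, ligands and adaptors, 11 of 18 genes were tested, 3 were higher and 5 lower, with a median of -0.60, beside 25.5% of all genes tested in each direction. The 5 lower became 3 without mouse 1, without mouse 7 and with mice 1 to 3 alone. Fgfr2 was higher by 1.32 (SE 0.084, edgeR adjusted p = 2.09e-11), with mean levels of 99.2 ± 11.9 CPM (tdTom+) and 39.7 ± 5.16 CPM (tdTom-; SD, n = 8), in the same direction as Fgfr3. Fgfr4 went the other way, with a log2 difference of -1.03, and Fgfr1 was low, at 0.684 and 1.33 CPM, with an edgeR adjusted p of 0.0104 that did not pass and of 0.0036 (log2 difference -0.94) with the mouse as a block. Klb, the gene of beta-klotho, the co-receptor that FGFR4 uses for endocrine FGFs, differed by -2.36 (SE 0.172, edgeR adjusted p = 1.84e-10). Fgfbp1, a carrier protein gene for FGFs, differed by -1.59 (SE 0.096) and the ligand gene Fgf1 by 0.49 (SE 0.084), both past the threshold.

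Of 27 genes for IGF and insulin ligands, binding proteins and substrates, 17 were tested, 6 were higher and 7 lower, with a median of 0.06, where all genes tested gave 25.5% each way. The orphan receptor gene Insrr, the third member of the insulin receptor family and known as a sensor of alkaline pH, was higher by 3.78 (SE 0.214, edgeR adjusted p = 3.12e-12). Its level was 18.8 to 45.8 CPM in tdTom+ and 1.18 to 3.51 CPM in tdTom- libraries, without overlap. The 3 receptor genes of this family thus had log2 differences of 3.78 (Insrr), -0.03 (Igf1r) and -0.29 (Insr). Igfals, which encodes a subunit of the circulating IGF complex, was higher by 2.69 (SE 0.142) from a low level of 0.801 CPM. Pappa2, a protease gene for IGF binding proteins, differed by -2.13 (SE 0.215) and Igfbp3 by -1.97 (SE 0.427), both past the threshold. The ligand gene Igf1 was at 0.0604 and 0.0684 CPM and was not tested, and Igfbp1, Igfbp2, Igfbp6, Irs4 and Stc1 had no count.

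Among 30 other receptor tyrosine kinase genes, without the Eph and ErbB families, 16 were tested, 4 were higher and 7 lower, with a median of -0.21, again beside 25.5% each way over all genes. Ror2, a receptor gene for Wnt5a, was higher by 1.30 (SE 0.116, edgeR adjusted p = 4.35e-09) and Tyro3 by 0.77 (SE 0.102). Mertk, which like Tyro3 encodes a receptor of the TAM family that binds Gas6 and protein S, went the other way at -1.37 (SE 0.082), and Lmtk3 differed by -2.06 (SE 0.229) from a low level. Alk had no count. The log2 difference of Kit, 3.33, was larger than that of Ror2, which had the largest positive difference on this list. It was smaller than that of the receptor gene Insrr, 3.78, which was read with the IGF and insulin genes.

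**Figure D4:**
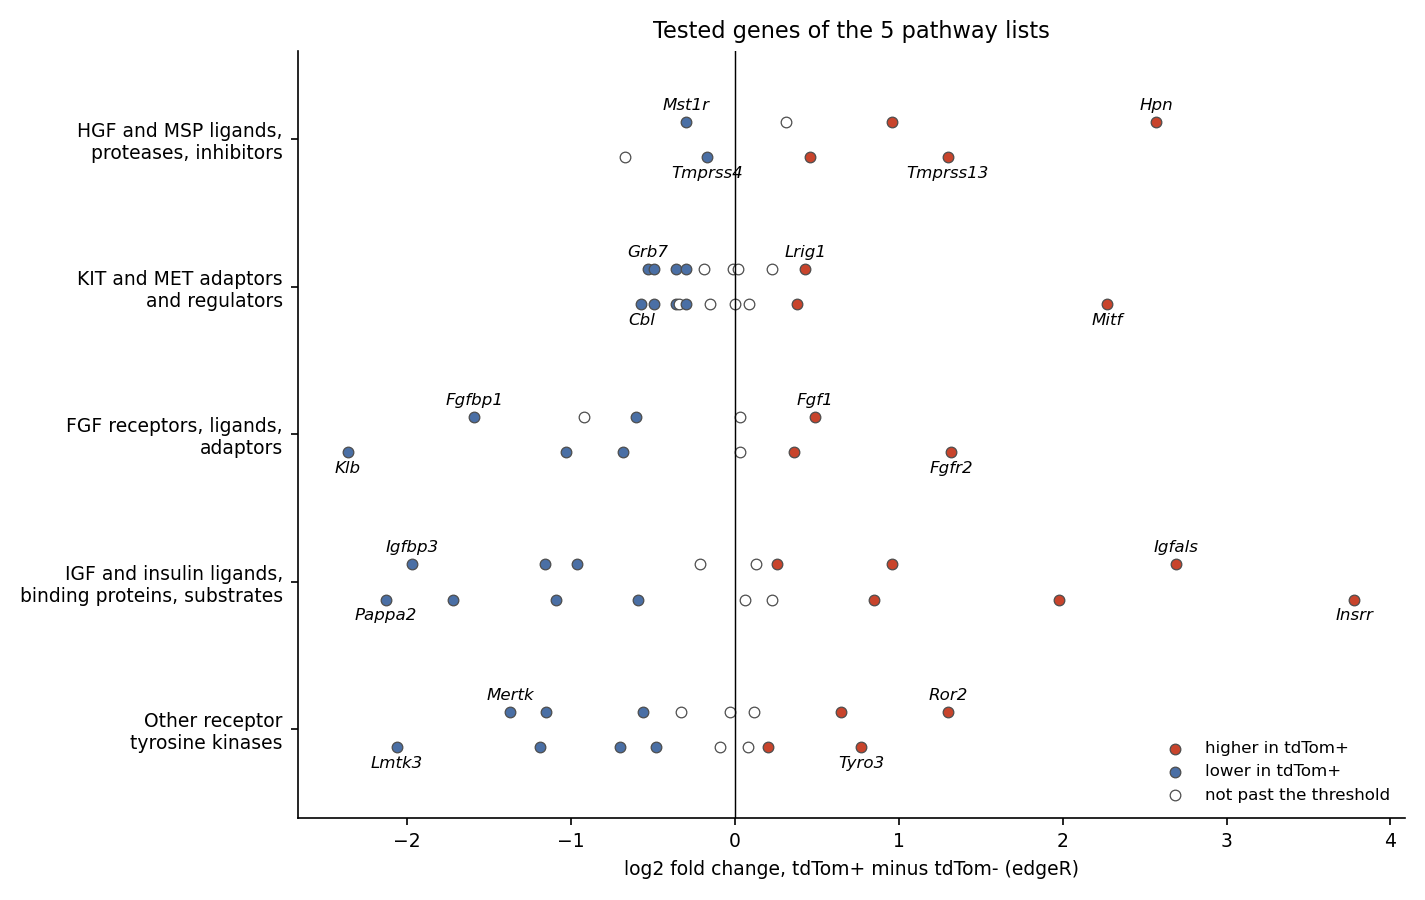
Log2 fold change (tdTom+ minus tdTom-, edgeR) of each tested gene of the 5 pathway lists, 1 row pair per list, filled red where higher, blue where lower and open where not past the threshold, with the named genes labelled. Every list holds genes in both directions, and Insrr at 3.78 lies farthest to the right and Klb at -2.36 farthest to the left.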

How the data were processed

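Live EpCAM+ tdTom+ and tdTom- colon cells of 8 mice were sequenced with a stranded mRNA kit as single-end reads. The authors aligned the reads with TopHat2 2.1.1 to GRCm38.p3 and deposited raw counts per gene from featureCounts (1.5.0-p1 in the file headers, Subread 1.5.2 in the submitters' processing notes, where DESeq2 1.14.1 is also named). Whether counting used strand is not given in the sources used here.

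Ensembl identifiers were matched to GENCODE M21 symbols (44585 of 45513). Genes were filtered with filterByExpr, scaled by TMM and tested in edgeR 4.0.16 (R 4.3.3) by the quasi-likelihood test over all 16 libraries without a mouse term, as the study's methods name none, with Benjamini-Hochberg adjustment over 15841 genes and a threshold of 0.01. CPM are the deposited counts in every 1000000 after TMM scaling, and RPKM are CPM per kilobase of the deposited exon length. SE are those of the log2 fold change. Mouse numbers in the titles pair the libraries: deviations from the fraction means correlated by 0.223 to 0.408 (Pearson's r across genes) within a mouse and by at most 0.168 between mice. A fit with the mouse as a block was an alternative, as were DESeq2 1.42.0, limma-voom (limma 3.58.1), RLE and upper-quartile scaling, no filter, at least 10 counts in every library, a threshold of 0.05, each mouse left out, and mice 1 to 3 or 5 to 8 alone. No 2 libraries of the same fraction agreed within sampling noise. The scripts were tested on simulated data.

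The genes named are all 10 members, Atoh1, the 5 genes most like Kit and like Hgfac, and per pathway list the 2 called genes with the largest difference each way, given 100 or more counts over all libraries. Prss8, Tmprss2, Gab1, Grb2, Shc1, Ptpn11, Fgfr1, Fgfr4, Serpinc1, Gab2, Lyn and Ide and the ligand genes were added after their values were seen. The members and lists were chosen with earlier results of these data known. Small intestine libraries were not analysed here.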

Additional observations from a re-analysis of the deposited data

Results flagged for a closer look

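Kit in the tdTom+ library of mouse 1 stood apart from the other tdTom+ libraries, with a log2 CPM of 8.63 where the others lay between 8.14 and 8.37. The gap to the nearest library was 0.531 of the whole range of the 8, just over Dixon's limit for 8 values. It was 1 of 34 groups examined, and chance marks about 1 in 20 groups, or 1.70 here. The same mouse had the highest Atoh1 level (166 CPM) and the highest Hgfac level (600 CPM) among the tdTom+ libraries, and without it the log2 difference of Kit was 3.31, beside 3.33 with all mice.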

How the results depend on the processing

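Of 306 values recomputed with another setting, 298 did not change sign or call, or as counts moved by at most 1.5 times. With mice 1 to 3 alone, 2546 genes were higher and 2559 lower (4032 and 4042 with all mice), and 7 genes of the KIT and MET adaptor list passed in place of 11, from fewer samples. Spint2 (-0.17, edgeR adjusted p = 0.0382) passed at a threshold of 0.05, but not at 0.05 without a filter (0.0977) or on leaving out any of 6 mice (0.0702 to 0.1038). Igf1r changed sign without mouse 2 (0.03), without mouse 7 (0.00) and with mice 5 to 8 alone (0.01), never past the threshold. Insr did not pass with mice 5 to 8 alone (-0.24, edgeR adjusted p = 0.0149). Leaving out each mouse gave 3670 to 4177 genes higher and 3700 to 3914 lower, with log2 differences of 3.30 to 3.39 for Kit, 3.00 to 3.10 for Hgfac, 1.94 to 2.01 for Fgfr3, -1.21 to -1.15 for Kitl, -0.61 to -0.55 for St14 and for Met, -0.82 to -0.76 for Spint1, -0.19 to -0.15 for Spint2, -0.06 to 0.03 for Igf1r and -0.32 to -0.25 for Insr. With the mouse as a replicate block, 4494 genes were higher and 4574 lower, and no member's call changed (Spint2 adjusted p = 0.0137), while Serpinc1, Gab2, Lyn, Fgfr1 and Ide of the pathway lists passed as well. Depth did not limit the members, but Hgf and most ligand genes were too low to test.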

Other observations

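Cma1, a chymase gene known from mast cells, was present in tdTom+ cells at 5.87 to 15.7 CPM and in tdTom- cells at 0.212 to 1.00 CPM, a log2 difference of 4.86 (SE 0.274, edgeR adjusted p = 3.04e-12). Of the other mast cell genes, Tpsb2 was at 0.451 to 1.11 CPM in tdTom+ and 0 to 0.38 CPM in tdTom- libraries, while Cpa3, Mcpt2 and Mcpt4 had no count in tdTom+ libraries. Stc2, a stanniocalcin gene whose product inhibits the proteases that release IGF, was higher in tdTom+ cells by 1.98 (SE 0.1, edgeR adjusted p = 4.98e-13), at 47.7 against 12.0 CPM. Dok4, the gene of a docking protein for receptor tyrosine kinases, differed by -1.72 (SE 0.074, edgeR adjusted p = 4.93e-14), at 37.3 against 123 CPM. These genes were named after their values were seen.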
